A study of Mus musculus with 67 samples.

Results

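Mouse chromosome 5 was followed through the DNA copy number profiles of 67 single blastomeres, as the autosome on which the fewest Aphidicolin cells carried a called gain or loss. All bins that both deposited tables assign to chromosome 5 were taken, which gave 758 bins of 13103 in all, against 11516 on the other autosomes. Values were present in all 67 cells for 747 of these bins, and 11 bins had none in any cell. The bins were summarised as 149 windows of 1 Mb from chr5:3000001-152000000 (mm9), out of 2397 windows on the 19 autosomes. Because call counts in these same cells chose the chromosome, those counts are given as a description and carry no test.

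The Aphidicolin group held 47 cells from 6 embryos (8 cells each from 5 embryos and 7 from the last), and the DMSO group 20 cells from 3 embryos (4, 8 and 8). All embryos were labelled BDF1, the name of hybrids of C57BL/6 and DBA/2 mice, and developed in vitro in CZB medium. Through the 4-cell stage the culture held aphidicolin at 75 ng/ml or DMSO without the drug, and single blastomeres were isolated at the 8-cell stage, amplified whole and sequenced by scRepli-seq. The deposited metadata place all cells in 1 collection window, named G1 to early S phase, and neither the sex of the embryos nor the phase of a single cell is given in the sources used here. The number of a cell is that of its library, embryos are numbered within a treatment, and the embryo was taken as the replicate.

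Chromosomes replicate in a set order, with gene-rich stretches usually copied early in S phase and gene-poor stretches late. In a cell that has begun S phase, read density is therefore higher over early stretches and lower over late ones, while a cell that has not begun to replicate has a flat profile. Aphidicolin inhibits the replicative DNA polymerases and slows replication forks, and chromosomes that enter mitosis incompletely copied can break or go to the wrong daughter cell. What produced the highs and lows described here, replication timing, amplification or mappability, was not tested.

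Aphidicolin cells had between 0.739 and 2.65 M recovered reads (median 2.01 M), and DMSO cells between 1.47 and 2.83 M (median 2.26 M). Over chromosome 5 the median window of a cell held between 292 and 1557 reads, which gives a counting error of between 0.04 and 0.08 on the log2 scale. The X chromosome lay between -1.09 and -0.90 log2 relative to the autosomes in Aphidicolin embryos and between -0.30 and -0.20 in DMSO embryos (embryo medians). The level of X and the treatment cannot be told apart in any comparison below.

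Chromosome 5 was altered in 10 of 47 Aphidicolin cells (21.3%, exact Clopper-Pearson 95% interval 10.7% to 35.7%), against 0 of 20 DMSO cells (interval 0 to 16.8%). Over all autosomes, 41.7% of pairs of an Aphidicolin cell and an autosome held a call, against 3.16% of such pairs for DMSO cells. These intervals cover counting only and take cells as independent, which cells of 1 embryo are not. The next fewest Aphidicolin cells were called on chromosomes 19 (13 cells) and 9 (14 cells), and the most on chromosome 3 (31 cells), with a median of 18.5 cells over the other 18 autosomes. By length, called stretches covered 7.27% of the windows of chromosome 5 in Aphidicolin cells, against 26.8% on the other autosomes. The 10 cells came from 4 of the 6 Aphidicolin embryos. Aphidicolin 3 had 4 called cells of 8, Aphidicolin 1 and Aphidicolin 5 had 2 of 8 each, Aphidicolin 6 had 2 of 7, and Aphidicolin 2 and Aphidicolin 4 had 0 of 8. Calls were made after the profile that cells share had been removed, and with the values as deposited 30 Aphidicolin cells and 18 DMSO cells would have been called on chromosome 5.

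The 13 called events, 6 gains and 7 losses, fell into 5 pairs of cells of the same embryo in which a loss in the first cell stood opposite a gain in the other. For the loss of cell 49 at 17 to 27 Mb, the opposite gain in cell 50 was called only at a minimum length of 5 Mb. Most events were internal or reached a single end of the chromosome, and 1 pair involved nearly all of it. Levels are log2 medians with the shared profile removed, and copies are computed with the autosomal median taken as 2 copies. Segment ends in the next sentences come from calls with a minimum length of 5 Mb, which resolve the shortest segments. At that length 2 of 20 DMSO cells were also called on chromosome 5, cell 14 (0.39 at 3 to 9 Mb) and cell 24 (-0.45 at 3 to 11 Mb).

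In Aphidicolin 1, cell 31 was at -0.95 (1.04 copies) and cell 34 at 0.68 (3.21 copies) over chr5:49000001-72000000, an internal stretch of 23 Mb. In Aphidicolin 3, cell 46 was at -0.87 (1.10 copies) and cell 47 at 0.57 (2.98 copies) over chr5:75000001-133000000, an internal stretch of 58 Mb. A further pair of Aphidicolin 3, cells 49 and 50, was opposite at 2 places and in opposite senses. Over chr5:20000001-25000000 cell 49 had the loss (-0.96, 1.03 copies) and cell 50 the gain (0.64, 3.11 copies), whereas over the last 21 Mb, chr5:131000001-152000000, cell 50 had the loss (-0.82, 1.13 copies) and cell 49 the gain (0.51, 2.84 copies). Neither cell had the loss at both places.

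In Aphidicolin 5, cell 59 was at -1.24 (0.845 copies) and cell 60 at 0.71 (3.27 copies) over chr5:9000001-14000000, the shortest of the stretches together with that at 20 to 25 Mb. At the minimum length of 10 Mb used for the counts, the same cells were called from 3 Mb onwards at -0.57 and 0.36, since the segment then also took in windows near 2 copies. In Aphidicolin 6, cell 68 was at -1.07 (0.952 copies) and cell 69 at 0.66 (3.16 copies) over chr5:3000001-128000000. With the 10-Mb minimum both met the rule for a whole chromosome (at least 90% of windows), with 90.6% called in cell 68 and 91.3% in cell 69. With the 5-Mb minimum neither did, with 88.6% in cell 68 and 89.3% in cell 69. Between the long segment and a last one at chr5:145000001-152000000, however, cell 68 stood at 2.00 copies over 17 Mb and cell 69 at 1.95 copies over 16 Mb, so neither was altered along its whole length.

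**Figure D1:**
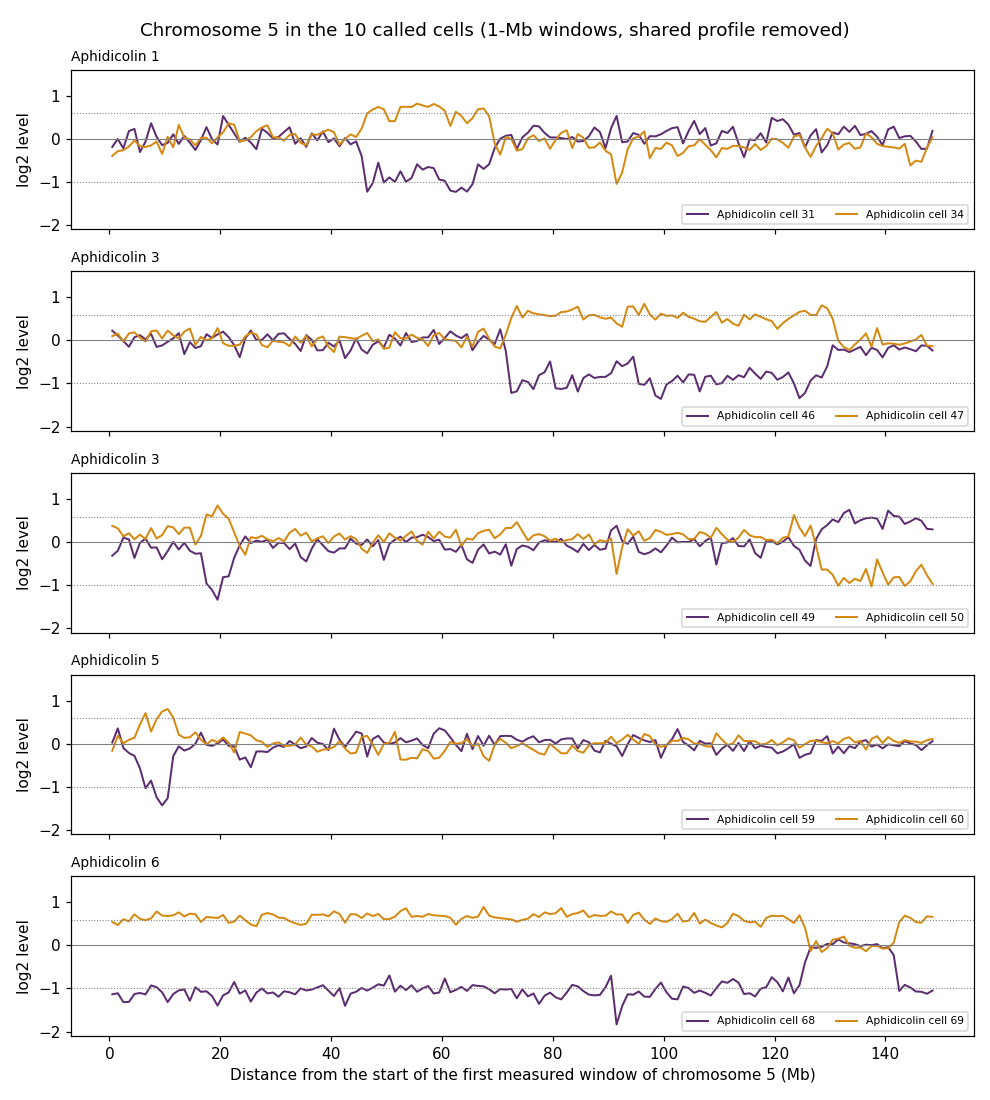
Level of chromosome 5 along its length in the 10 called Aphidicolin cells, 1 panel per pair of cells of an embryo. The x axis gives the distance in Mb from the start of the first measured window and the y axis the log2 level with the shared profile removed. The solid grey line is at 2 copies, and the dotted lines mark 3 copies (above) and 1 copy (below). In each panel the lines of both cells part at nearly the same places and in opposite directions.

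Copies of both cells of a pair summed to between 3.97 and 4.24 over the 7 opposite segments (median 4.11), where 2 unaltered cells would give 4. The other 5 or 6 cells of the same embryos stayed between -0.21 and 0.28 over these segments. Along chromosome 5 the paired cells were correlated at between -0.82 and -0.66 over the 149 windows. The partner of a cell was taken as the cell of its embryo with the lowest correlation there, so negative values follow in part from that choice. Opposite segments were kept only where both cells had overlapping calls of opposite sign, which also bears on the sums of copies. Each of the 10 called cells had the same most opposite cell of its embryo on chromosome 5 and on the other 18 autosomes, where the correlations were between -0.63 and -0.37 over 2248 windows. Among the 37 uncalled Aphidicolin cells, 3 had the same most opposite cell in both. These correlations are descriptions of 1 pair of cells each.

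The places at which levels changed were then set at the 200-kb bins, each searched within 4 Mb of the called segment end. These bins were treated as overlapping 1-Mb windows, so neighbouring bins share reads. Positions and distances finer than 1 Mb are therefore uncertain. For 11 pairs of segment ends, the step in the losing cell and that in the gaining cell lay 0 kb apart in 1 case, within 400 kb in 9 cases and at most 1400 kb apart. Cells 31 and 34 shared the step at 48600001, and their further ends lay at 72200001 and 72000001. The widest gap was at the end of the stretch of cells 46 and 47, at 132600001 in cell 46 and 134000001 in cell 47. Of the 22 steps, 7 (31.8%) lay in windows that were below 0 in the DMSO profile, as did 67 of all 149 chromosome 5 windows. At the steps the DMSO profile spanned -0.35 to 0.44, so they were not limited to lows or highs. Steps of a pair are not independent of each other, and no test was made.

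Chromosome medians used to define an unchanged copy level, within -0.4 to 0.3 in the deposited values, left 43 Aphidicolin and all 20 DMSO cells. Outside lay cells 68 (-1.04), 71 (0.31), 50 (0.34) and 69 (0.67), of which cell 71 had no called event. Just inside the upper limit lay cells 58 (0.28), 47 (0.27) and 44 (0.27). No cell lay close to the lower limit on the inside, where the lowest was cell 46 (-0.18). The 43 cells still held 7 of the 10 called ones, among them cells 46 and 47, whose events spanned 58 and 59 Mb.

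In DMSO embryos chromosome 5 had a fixed pattern of highs and lows, and the Aphidicolin cells with unchanged copy level had a similar pattern over a smaller range. The DMSO profile, the median over embryos of embryo medians, ran from -0.65 to 0.57, and the Aphidicolin profile from -0.35 to 0.54. Over the 149 windows the 2 profiles were correlated at 0.93. Single DMSO embryos were correlated with each other at 0.93 to 0.96, and Aphidicolin embryos with DMSO embryos at 0.43 to 0.94 (median 0.88). Neighbouring windows share domains, so these are descriptions over windows of 1 chromosome.

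The profile split into 12 domains, whose levels are medians over windows. The lows were at 39 to 52 Mb (-0.19 in Aphidicolin, -0.30 in DMSO), at 55 to 64 Mb (-0.25 in Aphidicolin, -0.52 in DMSO), at 68 to 72 Mb (-0.21 in Aphidicolin, -0.47 in DMSO), at 78 to 89 Mb (-0.24 in Aphidicolin, -0.54 in DMSO) and at 96 to 100 Mb (-0.13 in Aphidicolin, -0.32 in DMSO). The first 17 measured Mb, to 20 Mb, were also low, at -0.11 in Aphidicolin and -0.22 in DMSO. These profiles are medians over embryos, and in some lows Aphidicolin 4 and 5 were as deep as DMSO embryos. At 55 to 64 Mb Aphidicolin 4 and 5 were at -0.58 and -0.68, against -0.50, -0.70 and -0.47 in DMSO 1 to 3. Aphidicolin 1, 2, 3 and 6 were at -0.07, -0.17, -0.35 and -0.05 there. The long high stretches were 20 to 39 Mb (0.27 in Aphidicolin, 0.39 in DMSO) and the distal 52 Mb from 100 to 152 Mb (0.19 in Aphidicolin, 0.36 in DMSO). Between the lows lay shorter highs at 64 to 68 Mb (0.12 in Aphidicolin, 0.26 in DMSO), 72 to 78 Mb (0.04 in Aphidicolin, 0.21 in DMSO) and 89 to 96 Mb (0.11 in Aphidicolin, 0.22 in DMSO). The remaining domain, at 52 to 55 Mb, was near 0 in both, at 0.05 in Aphidicolin and 0.03 in DMSO, and was the only domain above 0 whose level was not lower in Aphidicolin. The distal stretch had 5 of 52 windows below 0 in DMSO (9.62%), whereas 62 of the 97 windows before it were (63.9%).

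The lowest 5 windows of the DMSO profile started at 57, 51, 50, 83 and 71 Mb, with DMSO profile levels of -0.65 to -0.58. The highest 5 started at 114, 115, 125, 123 and 34 Mb, at 0.53 to 0.57. Steepest of all was the step at 78 Mb, the start of a low domain, which measured -0.39 in Aphidicolin and -0.89 in DMSO. The next 4 were upward steps at 20 Mb (0.41 in Aphidicolin, 0.79 in DMSO), 64 Mb (0.27 in Aphidicolin, 0.70 in DMSO), 100 Mb (0.36 in Aphidicolin, 0.69 in DMSO) and 52 Mb (0.15 in Aphidicolin, 0.67 in DMSO). All 5 were smaller in the Aphidicolin profile. They were picked as the steepest in DMSO, so smaller values in Aphidicolin follow in part from that choice and carry no test.

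Among windows picked as lows and as highs at unlike limits, the lows were shallower in the Aphidicolin profile by more than the highs. In the 29 windows below -0.4 in DMSO, the median was -0.25 in Aphidicolin and -0.53 in DMSO, and the Aphidicolin profile was higher in 29 of 29. In the 50 windows above 0.3 in DMSO, the medians were 0.32 in Aphidicolin and 0.41 in DMSO, and the Aphidicolin profile was lower in 42. The windows were picked by their DMSO values, with a limit further from 0 for lows than for highs. Their DMSO extremes are thus partly selected, to an unlike degree, and these counts carry no test. The difference between treatments was correlated with the DMSO profile at -0.88 over the 149 windows, a value in which the DMSO level enters on both sides.

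**Figure D2:**
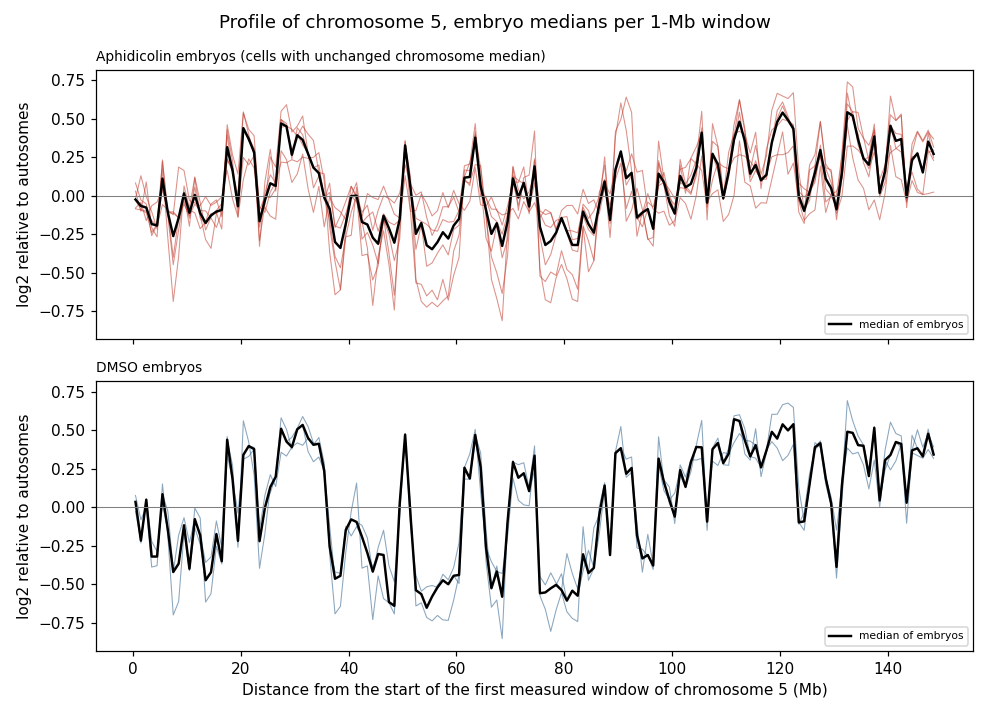
Profile of chromosome 5 in cells with unchanged copy level, Aphidicolin embryos above and DMSO embryos below. The x axis gives the distance in Mb from the start of the first measured window and the y axis log2 values relative to the autosomal median of the cell. Thin lines are embryo medians and the black line is their median, which spans -0.35 to 0.54 in Aphidicolin and -0.65 to 0.57 in DMSO.

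The size of the DMSO pattern was measured in each cell as the slope of its chromosome 5 windows on the DMSO profile. A slope of 1 stands for a pattern as large as in DMSO and 0 for none of that pattern. The slope is also lower where the pattern differs in shape from DMSO, so a low slope alone does not mean a flat chromosome. For a DMSO cell its own embryo was left out of the profile. Embryo means were 0.524, 0.591, 0.803, 0.921, 0.791 and 0.232 in Aphidicolin 1 to 6, against 0.991, 1.05 and 0.876 in DMSO 1 to 3. All Aphidicolin embryos except Aphidicolin 4 lay below every DMSO embryo. The means were 0.644 ± 0.249 in Aphidicolin (SD, n = 6), against 0.974 ± 0.0901 in DMSO (SD, n = 3), and the difference of -0.330 did not pass the exact two-sided permutation test (p = 0.0595, Benjamini-Hochberg adjusted p = 0.0893 over 3 measures). With 84 splits of the embryos the smallest p was 0.0119.

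Within embryos the Aphidicolin cells were uneven. Slopes of single cells spanned -0.158 to 1.11 in Aphidicolin (median 0.802, 43 cells) and 0.513 to 1.21 in DMSO (median 1.00, 20 cells). Slopes under 0.5 were found in 13 of 43 Aphidicolin cells, against 0 of 20 DMSO cells. Called events on chromosome 5 enter these slopes too. Cell 31, the highest at 1.11, had a mean slope of 0.696 on the other autosomes. Its partner, cell 34, had 0.423 on chromosome 5 and 0.832 on the others. The 13 cells included the called cells 34 and 60 (0.492). With called cells left out, the difference between treatments in embryo means was -0.353. The lowest slope was that of cell 73 of Aphidicolin 6, at -0.158, and the 4 next were those of cells 70 (0.0901), 27 (0.0996), 29 (0.125) and 40 (0.228). Aphidicolin 6 entered with 4 of its 7 cells, because cells 68, 69 and 71 lay outside the limits on the chromosome median. In Aphidicolin 4 all 8 cells lay between 0.862 and 1.04. The lowest DMSO cells were 24 (0.513) and 23 (0.547), both of DMSO 3. Slopes were correlated with recovered reads at 0.27 over the 43 Aphidicolin cells and at 0.03 over the 20 DMSO cells, and the part of depth in the slopes was not tested.

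The slope of chromosome 5 followed that of the rest of the genome. Across cells it was correlated with the mean slope of the other 18 autosomes at 0.94 in Aphidicolin (43 cells) and 0.96 in DMSO (20 cells), where both slopes share the library and its depth. Chromosome 5 minus the other autosomes of the same cell gave a mean of 0.0142 ± 0.0377 over Aphidicolin embryos (SD, n = 6), against 0.00214 ± 0.0136 over those of DMSO (SD, n = 3). This difference of 0.0121 did not pass the test (exact two-sided permutation p = 0.595, adjusted p = 0.595), so nothing particular to chromosome 5 was shown. Among the 19 autosomes its difference between treatments ranked 15, counted from the most negative, and the others ran from -0.455 on chromosome 7 to -0.263 on chromosome 19. A measure that needs no DMSO profile, the interquartile range over the windows of a cell, was 0.469 ± 0.137 in Aphidicolin (SD, n = 6), against 0.680 ± 0.0407 in DMSO (SD, n = 3), a difference of -0.212 (exact two-sided permutation p = 0.0595, adjusted p = 0.0893).

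**Figure D3:**
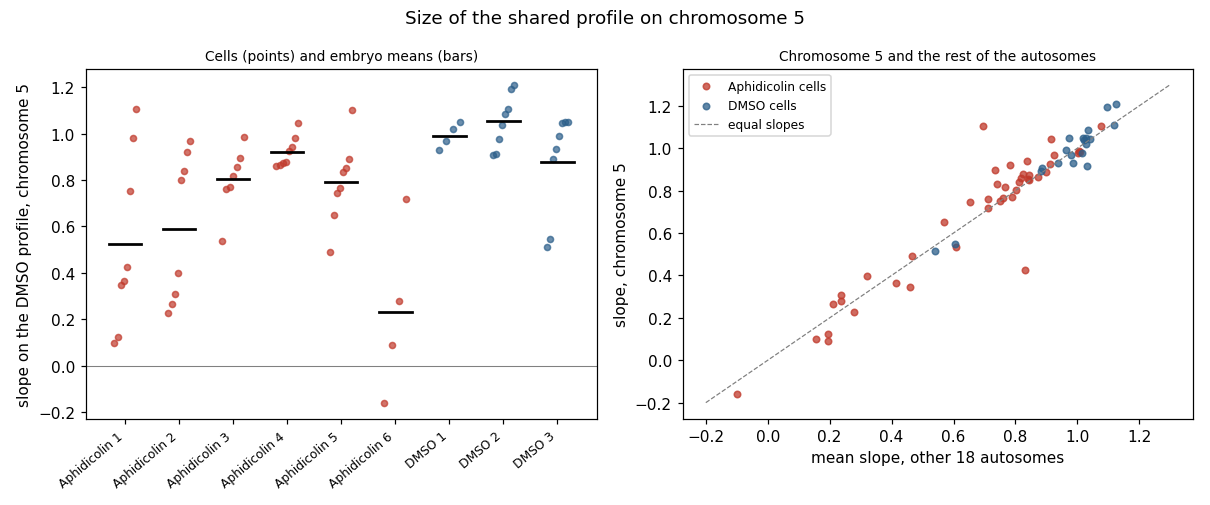
Slope of chromosome 5 on the DMSO profile. Left, single cells with unchanged copy level as points and embryo means as bars, for 6 Aphidicolin and 3 DMSO embryos; 5 of the 6 Aphidicolin means lie below all DMSO means. Right, the slope of chromosome 5 (y axis) against the mean slope of the other 18 autosomes (x axis) for 43 Aphidicolin and 20 DMSO cells, which scatter along the dashed line of equal slopes.

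Differences between treatments were also taken window by window, with limma on embryo means over all 2397 autosomal windows. At an adjusted p of 0.05, 0 of 149 windows on chromosome 5 were called (background 0.0%), and the lowest adjusted p was 0.200. At an unadjusted p under 0.05 there were 25 windows on chromosome 5 (16.8%), against 18.8% over all autosomal windows. Of the 25, 13 were higher in Aphidicolin (8.72%, background 13%) and 12 lower (8.05%, background 5.84%). The median difference was -0.02 on chromosome 5 and -0.00286 over all windows. In 11 windows of chromosome 5 the lowest Aphidicolin embryo exceeded the highest DMSO embryo (7.38%, background 4.59%), and in 10 the highest Aphidicolin embryo fell short of the lowest DMSO embryo (6.71%, background 3.8%). When single cells were fitted with the embryo as a random block, 9 windows of chromosome 5 were called (6.04%, background 5.8%), at an estimated correlation of 0.08 within embryos. Of these, 5 were higher in Aphidicolin (3.36%, background 4.63%). Just inside that threshold lay the window at 129 to 130 Mb (limma adjusted p = 0.0463) and just outside the window at 62 to 63 Mb (limma adjusted p = 0.0501).

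Among the lows, 4 windows, at 16 to 18 Mb, at 82 to 83 Mb and in the distal stretch, were shallower in Aphidicolin embryos. They were listed with the choice of the chromosome and come from this contrast, so their values are a description with no test. At chr5:16000001-17000000 the embryo means were -0.17, -0.24, -0.18, -0.32, -0.22 and -0.09 in Aphidicolin 1 to 6, against -0.59, -0.52 and -0.37 in DMSO 1 to 3. The groups did not overlap, and the means were -0.20 ± 0.08 in Aphidicolin (SD, n = 6), against -0.49 ± 0.11 in DMSO (SD, n = 3), a difference of 0.29 ± 0.07 (SE). At chr5:17000001-18000000 the means were -0.16, -0.08, -0.13, -0.35, -0.17 and -0.15 in Aphidicolin 1 to 6, against -0.53, -0.46 and -0.38 in DMSO 1 to 3. Here too the groups stayed apart, though Aphidicolin 4 lay close to DMSO 3, and the difference was 0.29 ± 0.07 (SE). Since the bins were treated as overlapping, adjoining windows share reads, and this window is not a separate measurement from the one before it.

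The low at chr5:82000001-83000000, inside the domain from 78 to 89 Mb, read -0.19, -0.14, -0.22, -0.40, -0.37 and -0.15 in Aphidicolin 1 to 6, against -0.42, -0.56 and -0.52 in DMSO 1 to 3. Aphidicolin 4 and 5 were lower than the other 4 Aphidicolin embryos and just above DMSO 1, and the difference was 0.26 ± 0.08 (SE). The low at chr5:133000001-134000000 is a narrow dip within the high distal stretch. It read -0.02, -0.09, -0.06, -0.19, -0.17 and 0.00 in Aphidicolin 1 to 6, against -0.41, -0.37 and -0.21 in DMSO 1 to 3. The means were -0.09 ± 0.08 in Aphidicolin (SD, n = 6), against -0.33 ± 0.11 in DMSO (SD, n = 3), a difference of 0.24 ± 0.07 (SE), and the gap between Aphidicolin 4 and DMSO 3 was small.

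Single cells overlapped at all 4 windows. At 16 to 17 Mb, Aphidicolin cells spanned -0.65 to 0.10 (median -0.19) and DMSO cells -0.91 to -0.14 (median -0.41). At 82 to 83 Mb the cells spanned -0.75 to 0.12 in Aphidicolin (median -0.22) and -0.90 to -0.20 in DMSO (median -0.53), and 40 of 43 Aphidicolin cells lay above the DMSO median. Between 180 and 264 reads stood behind the thinnest Aphidicolin cell at these windows and between 308 and 455 behind the thinnest DMSO cell. After each cell's slope on the DMSO profile was taken out, differences of 0.12, 0.13, 0.10 and 0.16 were left at the windows in the order given above.

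**Figure D4:**
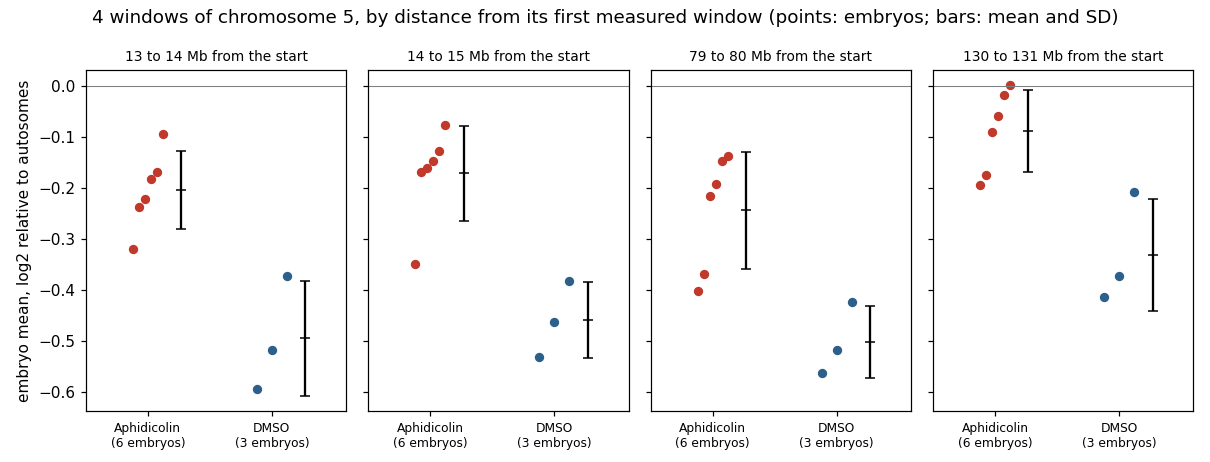
Embryo means of 4 windows of chromosome 5, with log2 values relative to the autosomal median on the y axis. Panels give the distance of the window from the first measured one; points are embryos, and the black bars give mean and SD of 6 Aphidicolin (left) and 3 DMSO embryos (right). The Aphidicolin points lie above the DMSO points in all 4 panels.

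Further windows below 0 in DMSO were also higher in Aphidicolin embryos. At chr5:97000001-98000000 the level was -0.08 ± 0.11 in Aphidicolin (SD, n = 6), against -0.33 ± 0.10 in DMSO (SD, n = 3), a difference of 0.25 ± 0.08 (SE), with all 6 Aphidicolin embryos above all DMSO embryos. The same separation held at 13 to 14 Mb (0.21 ± 0.06, SE), at 19 to 20 Mb (0.20 ± 0.06, SE) and in 4 further windows, with differences of 0.11 to 0.14. These windows were picked out after their values had been seen.

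The largest differences in the other direction were in high windows. At chr5:112000001-113000000 the level was 0.01 ± 0.10 in Aphidicolin (SD, n = 6), against 0.29 ± 0.04 in DMSO (SD, n = 3), a difference of -0.28 ± 0.07 (SE). At 129 to 130 Mb it was 0.12 ± 0.13 in Aphidicolin and 0.39 ± 0.03 in DMSO, and at 38 to 39 Mb -0.02 ± 0.10 in Aphidicolin and 0.23 ± 0.09 in DMSO. At 37 to 38 Mb it was 0.15 ± 0.09 in Aphidicolin and 0.39 ± 0.10 in DMSO, and at 106 to 107 Mb 0.07 ± 0.15 in Aphidicolin and 0.31 ± 0.03 in DMSO. In each of these 5 windows all 6 Aphidicolin embryos lay below all DMSO embryos. Besides the windows at 16 to 18 and 82 to 83 Mb, the largest positive differences were at 62 to 63 Mb (0.28 ± 0.10, SE) and at 50 to 51 Mb (0.25 ± 0.09, SE), where 5 and 4 of the 6 Aphidicolin embryos lay above all DMSO embryos.

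A strip of 2 Mb at chr5:94000001-96000000 differed between whole embryos. It was singled out after its values had been seen and has no test. The window at 94 to 95 Mb had the highest SD of embryo medians on chromosome 5 (0.196, against a median of 0.0855 over its windows). High SDs continued past the strip, at 0.152 for 96 to 97 Mb and 0.170 for 97 to 98 Mb, a window among the flanks used below. With the shared profile removed, all 8 cells of Aphidicolin 2 lay above 0 in the strip (0.13 to 0.59, median 0.36, or 2.57 copies), whereas all 8 cells of Aphidicolin 4 lay below 0 (-0.57 to -0.17, median -0.33, or 1.59 copies). Flanking windows at 91 to 93 and 97 to 99 Mb were near 0 in both embryos, at medians of -0.02 in Aphidicolin 2 and -0.09 in Aphidicolin 4. The medians of the other 7 embryos lay between -0.07 and 0.06.

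Single cells also stood out in the strip. Cell 34 read -0.92 with flanks at -0.04, while its partner cell 31 read 0.22 with flanks at 0.11. Cell 68 read -1.62 within its long loss, whose flanks were at -1.11, and its partner cell 69 read 0.72 with flanks at 0.70. Cell 50 read -0.43 with flanks at 0.10, and its partner cell 49 read 0.20 with flanks at -0.17. In the remaining pair whose call covered the strip, the strip was less extreme than its flanks, at -0.54 with flanks at -0.85 in cell 46 and 0.35 with flanks at 0.56 in cell 47. The uncalled cell 72 of Aphidicolin 6 read -0.40 with flanks at -0.07. Among DMSO cells, cell 25 was highest, at 0.57 with flanks at -0.09. Neither the alignment nor the content of this strip could be examined here, and the part of mapping in its values was not tested.

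**Figure D5:**
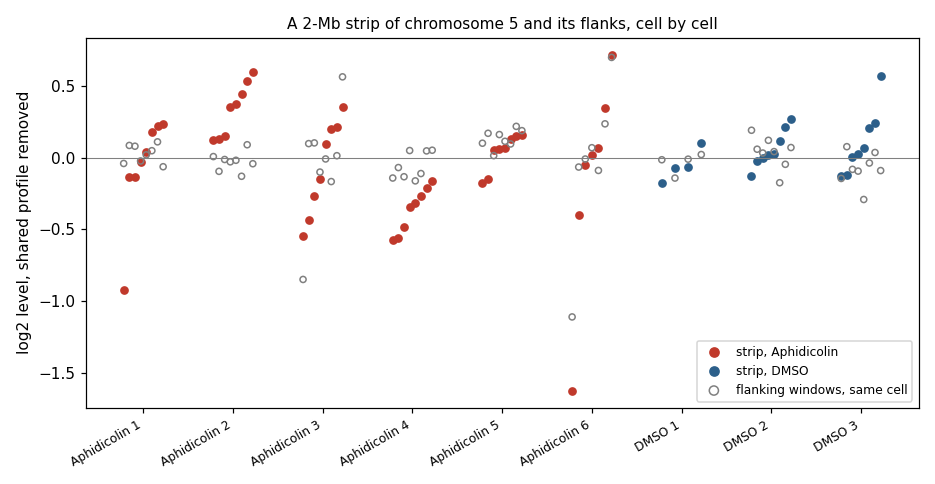
Level of the strip of 2 Mb in every cell, by embryo, with Aphidicolin embryos left of DMSO embryos. The y axis gives log2 values with the shared profile removed; filled points are the strip and open points the flanking windows of the same cell. All 8 points of Aphidicolin 2 lie above 0 and all 8 of Aphidicolin 4 below it.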

How the data were processed

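The deposited tables hold log2 values per cell and bin, centred by the authors on each cell's median, on the mm9 build per the submitters' processing notes. Aligner and read filters were not given in the sources used here. A noise score and pass marks per cell (67 of 67 passed, 0 manually filtered) and other columns naming embryo and collection window were deposited without a stated scale, per the file headers.

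All values (100%, tolerance 0.01 reads) could be turned back into whole reads when bins 5 steps apart shared 1 median, so bins of 200 kb were treated as overlapping 1-Mb windows. Window medians (at least 3 bins) were set relative to the autosomal median of the cell. For calls, a profile common to both treatments was fitted by Huber regression and removed. Change points were placed by penalised least squares (penalty of 4 noise variances, scaled by the log of the window number; minimum length 10 Mb), and neighbours within 0.35 were merged. Gains were above 0.32, losses below -0.42 and whole chromosomes at 90% or more. Window differences were fitted with limma 3.58.1 in R 4.3.3 and adjusted by Benjamini-Hochberg over 2397 windows. The 3 measures were compared by exact permutation of embryo means. The calling, limma and permutation steps were tested on simulated data. The stretches named are those listed with the choice of the chromosome, all called events, the 5 highest and 5 lowest DMSO windows, the 5 largest differences each way and the 5 steepest steps. Chromosome, stretches and measures were chosen with earlier results of these data known. No genome or annotation of mm9 was used, so genes and sequences are not reported.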

Additional observations from a re-analysis of the deposited data

Results flagged for a closer look

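Over 41 groups of 4 to 10 samples, 3 held a highest or lowest value set far from the rest by Dixon's criterion, and chance gives about 1 in 20. In the window at 17 to 18 Mb, the mean of Aphidicolin 4 was -0.35 and those of the other 5 Aphidicolin embryos lay between -0.17 and -0.08. In the window at 129 to 130 Mb, the mean of Aphidicolin 6 was -0.11, from 4 cells, and the other 5 lay between 0.12 and 0.26. This window only just met the criterion, with a Dixon ratio of 0.6252 against a limit of 0.625. In the strip at 94 to 96 Mb, cell 34 read -0.92 and the other 7 cells of Aphidicolin 1 lay between -0.14 and 0.24. Cell 34 had the fewest recovered reads of all cells (0.739 M) and a median of 292 reads per chromosome 5 window, and the part of depth in its value was not tested.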

How the results depend on the processing

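With values as deposited, the calls on chromosome 5 came to 30 Aphidicolin cells and 18 DMSO cells, since the highs and lows that cells share are then left in the values. At a minimum length of 5 Mb, 10 Aphidicolin cells and 2 DMSO cells were called. The DMSO calls were cell 14 (0.39 at 3 to 9 Mb) and cell 24 (-0.45 at 3 to 11 Mb), and the cause was not tested. Stricter limits gave 8 Aphidicolin and 0 DMSO cells, and windows with at least 1 bin, an alternative added after seeing the data, gave 9 and 0. With single cells and the embryo as a random block, 9 windows of chromosome 5 were called. Under the other alternatives 0 windows were called. Leaving out each of the 9 embryos in turn gave slope differences between -0.385 and -0.248, differences of chromosome 5 from the other autosomes between 0.00464 and 0.0226, differences in interquartile range between -0.246 and -0.170, and 0 called windows each time. None of the 3 measures passed at an adjusted p of 0.05 under any alternative run. Unadjusted exact permutation p for the interquartile range was 0.0476 without called cells and 0.0238 with a chromosome median within -0.2 to 0.15. Without Aphidicolin 4 it was 0.0357 for both slope and interquartile range. With the profile from all other embryos the slope difference was -0.453 (exact permutation, adjusted p = 0.0595). The difference of chromosome 5 from the other autosomes was then 0.0649, against 0.0121 as reported (exact permutation, adjusted p = 0.0595). With the chromosome median within -0.2 to 0.15, chromosome 5 differed from the other autosomes by 0.0299. No paired analysis was possible because the labels pair neither embryos nor cells across treatments. The 9 embryos and the X level that moved with treatment limit all comparisons, and counting error limits single windows of single cells, at 0.04 to 0.08 for the median chromosome 5 window of a cell and more where a window holds fewer reads.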
